A study of Homo sapiens with 9 samples.

Results

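The response of T84 cells to interferon gamma was measured on 6 of the 9 arrays of the series, 3 of treated and 3 of untreated cells. T84 is a human colon carcinoma line of epithelial cells. Treated cells received interferon gamma at 100 U/ml for 24 h. Untreated cells, at passage 68, filled about 90% of the wells of 6-well plates when RNA was taken, and for the treated cells the sources used here give no passage, density or plates. Both groups carry no genetic change that the labels name, and the experiment covers 1 line, 1 dose and 1 time. The series looked for glycosylation genes behind the rise of sialylated CD44 variant 6 that this cytokine brings about in some gut cell lines. Replicates carry a number in the labels, but nothing says that they came from separate cultures, so p-values cover only a spread between samples that may be technical. In such bulk samples, fewer cells of a type and less RNA per cell cannot be told apart.

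Interferon gamma is the cytokine of activated T cells and natural killer cells. It binds a receptor made of IFNGR1 and IFNGR2, which signals through the kinases JAK1 and JAK2. Target genes are reached through gamma-activated sites in DNA, and through interferon-stimulated response elements, which regulators such as IRF1 bind. In the gut epithelium this pathway is known for chemokines that draw in T cells, for antigen presentation on MHC class II and for adhesion molecules.

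The sequences shown are the 250 bases before the transcription start of the 4 genes with the largest rises among those read by a probe set of their own. They were taken from RefSeq on GRCh38.p14, and run 5′ to 3′ on the gene's strand. CXCL9 lies at chr4:76007510-76007759, CXCL10 at chr4:76023498-76023747 and CXCL11 at chr4:76036071-76036320, all on the minus strand, and ICAM1 at chr19:10270870-10271119 on the plus strand. Capitals mark matches, on either strand, to 3 motifs. The gamma-activated site was searched as TTCNNNGAA, the interferon-stimulated response element as GAAA, any 2 bases and GAAA, and the kappa B site as GGG, any 5 bases and CC. Overlapping matches form 1 run of capitals.
CXCL9: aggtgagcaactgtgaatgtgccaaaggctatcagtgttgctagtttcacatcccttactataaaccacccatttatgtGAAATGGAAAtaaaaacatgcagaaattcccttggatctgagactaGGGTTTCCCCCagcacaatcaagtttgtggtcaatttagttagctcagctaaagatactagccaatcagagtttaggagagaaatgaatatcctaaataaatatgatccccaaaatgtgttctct
CXCL10: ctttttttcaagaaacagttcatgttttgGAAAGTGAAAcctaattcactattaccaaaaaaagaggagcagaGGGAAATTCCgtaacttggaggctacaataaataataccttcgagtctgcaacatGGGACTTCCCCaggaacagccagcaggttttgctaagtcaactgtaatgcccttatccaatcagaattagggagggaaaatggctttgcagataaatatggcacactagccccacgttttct
CXCL11: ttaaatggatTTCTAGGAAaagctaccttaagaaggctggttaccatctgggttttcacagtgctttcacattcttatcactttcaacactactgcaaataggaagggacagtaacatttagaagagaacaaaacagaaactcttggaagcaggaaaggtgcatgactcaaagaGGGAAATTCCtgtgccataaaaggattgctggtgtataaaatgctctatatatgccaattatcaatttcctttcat
ICAM1: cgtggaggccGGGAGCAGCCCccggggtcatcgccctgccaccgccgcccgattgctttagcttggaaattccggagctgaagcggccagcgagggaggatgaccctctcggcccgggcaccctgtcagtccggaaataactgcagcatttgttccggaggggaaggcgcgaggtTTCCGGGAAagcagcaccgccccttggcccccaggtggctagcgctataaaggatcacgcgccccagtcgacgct
The CXCL9 window held GAAATGGAAA from base -171, counted from the start, and the CXCL10 window GAAAGTGAAA from base -221. CXCL11 held TTCTAGGAA from base -240 and ICAM1 held TTCCGGGAA from base -75. Both CXCL10 and CXCL11 carried GGGAAATTCC, from bases -177 and -76. With the first 50 transcribed bases added, RefSeq windows were at hand for 43 of the 51 genes that rose and 64 of the 80 that fell. The shares that follow are over these windows with the added bases, then over the 250 bases alone. The gamma-activated site motif stood in 11.6% and 9.3% of the windows of genes that rose, 6.25% and 6.25% of those that fell, 7.57% and 6.05% of the 727 windows of genes on the array, and 7.88% and 6.78% of 27305 RefSeq promoters. The response element motif stood in 16.3% and 6.98% of the windows of genes that rose, that is 7 and 3 of 43, in 0 of 64 that fell, in 4.13% and 3.44% over the array, and in 3.65% and 3.07% of all promoters. Its matches in IL12A, PSME1, TNFSF13B and LGALS9 lay in the added transcribed bases or reached into them. The kappa B motif stood in 81.4% and 76.7% of genes that rose, 79.7% and 75% of those that fell, 69.9% and 66.3% over the array, and 58% and 53.7% of all promoters. These matches describe letters in a window and were not tested as sites.

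Each array gave a log2 signal for 1259 probe sets, the groups of probes that read 1 transcript or a set of related ones. Array medians lay between 6.7 and 6.76. Arrays of 1 group correlated at 0.994 to 0.999 over all probe sets and arrays of different groups at 0.981 to 0.987. Signals were not tested against a background level here, so folds of dim probe sets describe the signal alone. Precision is limited by the 3 arrays a group, and log2 fold changes had a standard error of 0.0596 at the median. Of 7 measured markers of intestinal epithelium, LGALS4 and MUC13 had signals between 11.90 and 13.04 on every array, FUT3 and ST6GALNAC1 between 9.05 and 9.59, MUC2 between 6.98 and 7.33, and LCT and MUC17 between 5.27 and 5.53. Of the 7, MUC13 rose and LGALS4, ST6GALNAC1 and FUT3 fell, 57.1% past the test against 14.1% over all genes. The part of these markers in other results was not tested. None of 27 leukocyte markers and none of 12 fibroblast and endothelial markers passed the test, and their mean signals lay between 5.6 and 5.66 and between 4.91 and 4.96 on every array. Among them, CD2 of T cells read 6.54 to 6.76 and PECAM1 of endothelium 6.47 to 6.60.

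Of the 1259 probe sets, 166 (13.2%) differed between treated and untreated cells at an adjusted p below 0.05 (limma, Benjamini-Hochberg over all probe sets). Rises numbered 65 (5.16%) and falls 101 (8.02%). At least 2-fold changes were 19 rises (1.51%) and 9 falls (0.715%), and the median size was 1.53-fold among rises and 1.34-fold among falls. All 166 had treated and untreated arrays that did not overlap, as did 346 probe sets (27.5%) in all, 121 with treated arrays above (9.61%) and 225 with treated arrays below (17.9%). Taking for each of 927 named genes its brightest probe set over the 6 arrays, 131 genes (14.1%) passed, 51 higher (5.5%) and 80 lower (8.63%). Centring each array on its ribosomal protein genes, which lifts the median log2 fold change from -0.01 to 0.05, gave 66 probe sets higher and 58 lower in place of 65 and 101.

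**Figure D1:**
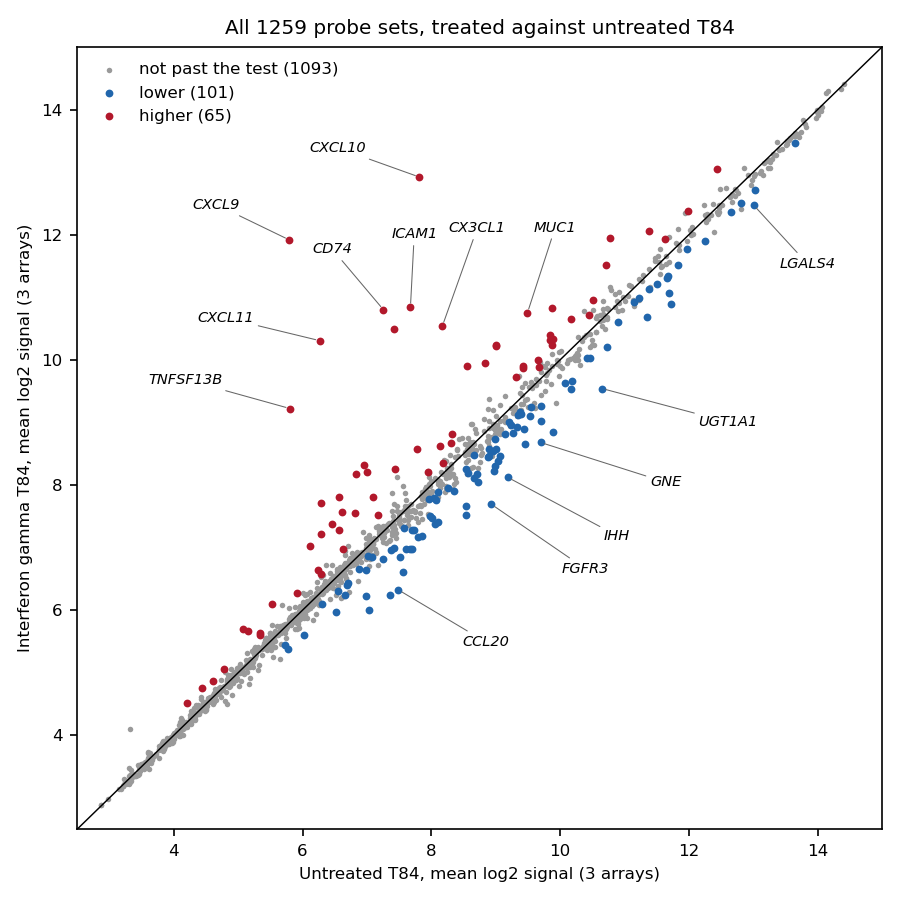
Mean log2 signal of each of 1259 probe sets in treated T84 (vertical axis, 3 arrays) against untreated T84 (horizontal axis, 3 arrays), with the line of equal signal. Red points are the 65 probe sets that rose and blue points the 101 that fell. The rises of CXCL9, CXCL10, CXCL11, CD74 and TNFSF13B lie far above the line, and the falls stay close to it.

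The 3 ligands of the T cell receptor CXCR3 gave the 3 largest rises of all genes. CXCL9 (NM_002416.1) had log2 signals of 12.36, 12.01 and 11.39 in treated replicates 1 to 3 and of 5.91, 5.66 and 5.80 in untreated replicates 1 to 3. The treated arrays lay over 5 units above every untreated array, although they spread more widely (SD 0.49 against 0.12, n = 3 each). The rise was 69.8-fold (95% confidence interval 46.3 to 105, limma adjusted p = 4.29e-05). CXCL10 (NM_001565.2) read 13.04, 12.89 and 12.83 in treated cells against 7.92, 7.59 and 7.92, a rise of 34.5-fold (28.6 to 41.7, limma adjusted p = 3.42e-06). Its groups were tight and far apart. CXCL11 (NM_005409.3) read 10.71, 10.15 and 10.06 against 6.85, 6.28 and 5.68, or 16.4-fold (9.48 to 28.5, limma adjusted p = 0.000749). Its untreated arrays differed among themselves by more than those of the other ligands (SD 0.58, n = 3). The receptor gene CXCR3 itself had a log2 fold change of -0.05 (adjusted p = 0.549). All 3 rises passed on leaving out any single array.

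**Figure D2:**
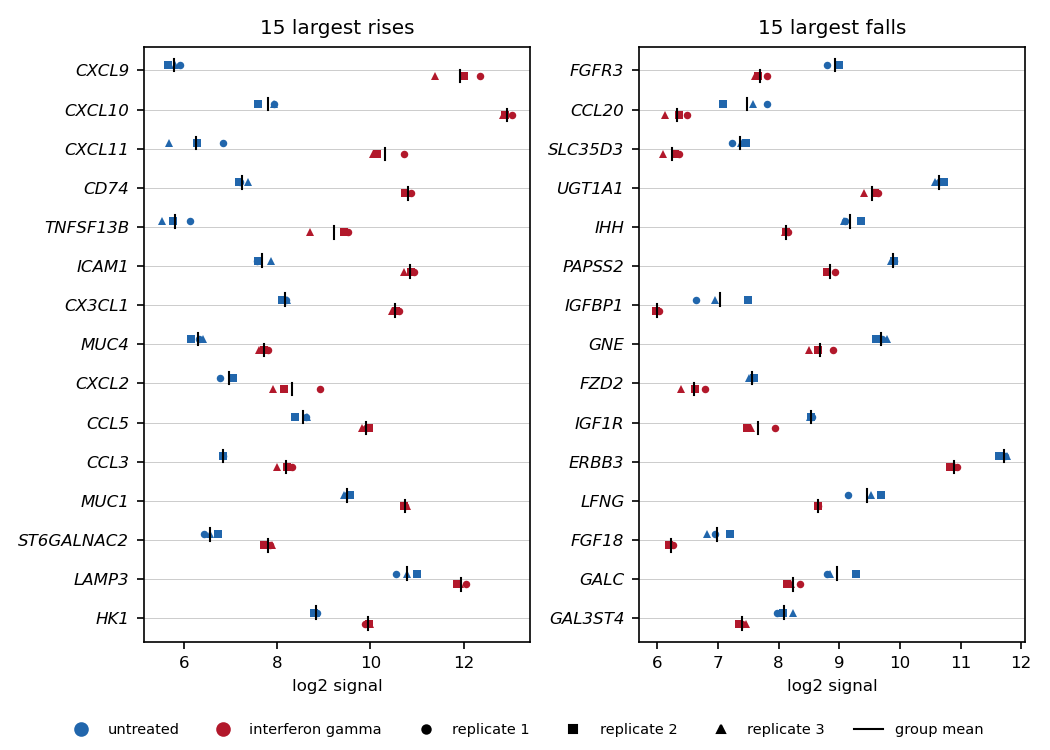
Log2 signals of the 15 genes with the largest rises (left) and the 15 with the largest falls (right), with 1 point an array, red for treated and blue for untreated, the shape giving the replicate and the black bar the group mean. In each gene the 3 treated and 3 untreated arrays do not overlap. The falls are smaller than the leading rises, and among them CCL20, IGFBP1, LFNG and GALC show the widest spread of untreated arrays.

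Of 11 other CXC chemokines measured, 3 rose and none fell, 27.3% past the test against 14.1% over all genes, and the median log2 fold change was -0.01, as over all genes. The 3 were CXCL1, CXCL2 and CXCL3, neighbours in sequence that draw neutrophils through CXCR2. CXCL2 read 8.91, 8.15 and 7.91 in treated cells against 6.77, 7.05 and 7.05 (2.58-fold, 1.66 to 4.01, limma adjusted p = 0.0204). CXCL3 read 8.67, 8.23 and 7.87 against 7.36, 7.40 and 7.54 (1.77-fold, 1.27 to 2.47, limma adjusted p = 0.0454). CXCL1 read 7.97, 7.37 and 7.33 against 6.71, 6.85 and 6.86 (1.68-fold, 1.25 to 2.27, limma adjusted p = 0.0427). In all 3 genes treated replicate 1 was the highest array, and the treated arrays spread over more than the untreated ones. CXCL8, which acts on the same receptor, had a log2 fold change of 0.11 (adjusted p = 0.779) with overlapping groups. The calls of CXCL2 and CXCL3 ended without treated replicate 2 or any untreated array (adjusted p up to 0.0867 and 0.152), and that of CXCL1 on leaving out any array other than treated replicate 1 (up to 0.146). The CXCL2 probe set can cross-hybridise, and a second one without that mark rose by 1.20 log2 units (limma adjusted p = 0.0165).

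Among 24 chemokines of the CC, C and CX3C families, 5 rose and 1 fell (25%, against 14.1% over all genes), and the median was 0.03. CX3CL1, fractalkine, is made as a membrane-anchored adhesive chemokine for cells with CX3CR1. Its signals were 10.60, 10.55 and 10.46 in treated against 8.18, 8.11 and 8.22 in untreated cells, and both groups were tight (5.16-fold, 4.72 to 5.63, limma adjusted p = 3.42e-06). CCL5, which draws T cells and monocytes, read 9.91, 9.96 and 9.83 against 8.62, 8.39 and 8.65 (2.55-fold, 2.23 to 2.91, limma adjusted p = 0.000251). CCL3, a macrophage inflammatory protein, read 8.33, 8.22 and 8.0 against 6.84, 6.83 and 6.83 (2.55-fold, 2.20 to 2.95, limma adjusted p = 0.000343), on a probe set shared with related transcripts. CCL4, a close relative of CCL3, had a log2 fold change of 0.09 (adjusted p = 0.594). The monocyte attractant CCL2 rose from a dim 4.20 ± 0.03 to 4.51 ± 0.01 (SD, n = 3 each, limma adjusted p = 0.00287), or 1.24-fold, on a probe set not shown to be above background. CCL22, a ligand of CCR4 named here after its value was seen, rose 1.27-fold (limma adjusted p = 0.0183, and up to 0.0777 without any treated array or untreated replicate 1).

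CCL20, the chemokine ligand of CCR6 that draws dendritic cells, B cells and a class of helper T cells to the epithelium, fell while the other called chemokines rose. Treated arrays read 6.49, 6.36 and 6.13 and untreated arrays 7.80, 7.08 and 7.57. The lowest untreated array, replicate 2, still lay above every treated one. The fall was 2.23-fold (1.60 to 3.12, limma adjusted p = 0.0141), and it did not pass without treated replicate 2, treated replicate 3 or untreated replicate 3 (adjusted p up to 0.0708). Of 16 chemokine receptor genes none passed, against 14.1% over all genes, and their log2 fold changes ran from -0.12 to 0.06.

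Outside the chemokines, 9 genes listed as induced by interferon were measured. Of these, 5 rose and none fell (55.6%, against 14.1% over all genes), with a median of 0.44 against -0.01. The list was chosen with earlier results of these data known, so its share is no independent support. PSME1 and IFITM2, which also rose, were not on it. CD74, the invariant chain that guides MHC class II molecules and also binds the cytokine MIF, read 10.87, 10.74 and 10.79 in treated cells against 7.21, 7.19 and 7.37. The arrays within each group nearly coincided (11.7-fold, 10.4 to 13, limma adjusted p = 3.42e-06). TNFSF13B, the B cell survival factor BAFF, read 9.51, 9.44 and 8.71 against 6.14, 5.76 and 5.52 (10.7-fold, 6.88 to 16.6, limma adjusted p = 0.000649). Replicate 3 was the lowest array in both of its groups. The probe sets of both genes are shared with related transcripts. ICAM1, the ligand of leukocyte integrins on which lymphocytes and neutrophils adhere, read 10.94, 10.87 and 10.71 against 7.58, 7.58 and 7.87 (8.97-fold, 7.56 to 10.7, limma adjusted p = 2.48e-05).

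LAMP3, a lysosomal membrane protein, read 12.05, 11.86 and 11.93 against 10.54, 10.99 and 10.79 (2.25-fold, 1.83 to 2.76, limma adjusted p = 0.0021). LGALS9, the galectin that binds TIM-3 on T cells, rose from 9.89 ± 0.09 to 10.33 ± 0.07 (SD, n = 3 each), or 1.35-fold (limma adjusted p = 0.00752). The other 4 did not pass. IFITM1, a membrane protein that restricts virus entry, was bright in both groups and separate, at 14.28 to 14.32 in treated and 14.12 to 14.21 in untreated cells, with a log2 fold change of 0.13 (adjusted p = 0.0897). The secreted glycoprotein LGALS3BP was at 0.11, the sialic acid receptor SIGLEC1 at 0.03 and the adhesion molecule VCAM1 at -0.04.

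The receptor genes of the cytokine itself did not pass. Named here after their values were seen, IFNGR1 read 11.25, 10.74 and 10.55 in treated cells against 11.05, 10.76 and 10.77, and IFNGR2 10.37, 10.27 and 10.27 against 10.27, 10.39 and 10.37. In both genes the groups overlapped, with 95% confidence intervals of the log2 fold change of -0.48 to 0.45 and -0.16 to 0.08. Of 25 interferon and interleukin receptor genes, 3 rose and none fell (12%, against 14.1% over all genes), with a median of 0.02. IL2RG, the common gamma chain of several interleukin receptors, read 10.92, 10.72 and 10.87 against 9.75, 10.04 and 9.83 (1.95-fold, 1.67 to 2.28, limma adjusted p = 0.00162). Its probe set is shared only among transcripts of the gene. IL10RA, the ligand-binding chain for interleukin 10, read 5.61, 5.68 and 5.72 against 5.15, 5.13 and 5.17 (1.44-fold, 1.34 to 1.54, limma adjusted p = 0.000745). The IL10RA probe set was dim and not shown to be above background. IL3RA rose 1.29-fold (limma adjusted p = 0.0339), a call that ended on leaving out any array other than treated replicate 3 (adjusted p up to 0.134).

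Mucins, the heavily O-glycosylated proteins that coat the gut surface, rose where a mucin proper passed. Of 16 measured genes on the list, 3 rose and 1 fell (25% past the test, against 14.1% over all genes), and the median was -0.04. All 3 that rose encode membrane-bound mucins. MUC4 read 7.80, 7.72 and 7.60 in treated against 6.33, 6.14 and 6.40 in untreated cells (2.67-fold, 2.31 to 3.08, limma adjusted p = 0.000251), on a shared probe set. MUC1 read 10.73, 10.73 and 10.78 against 9.49, 9.56 and 9.43 (2.39-fold, 2.21 to 2.58, limma adjusted p = 3.9e-05). Its 2 other probe sets, which can cross-hybridise, rose by 1.24 and 1.22 log2 units, close to the 1.26 of this one, which is shared only among transcripts of the gene. MUC13 rose from 11.98 ± 0.07 to 12.38 ± 0.09 (SD, n = 3 each), or 1.32-fold (limma adjusted p = 0.0101). Not every membrane mucin rose. MUC16 was higher on every treated array, at a log2 fold change of 0.37, but did not pass (adjusted p = 0.103). MUC17, also membrane-bound, did not pass either, and its dim signals overlapped, at 5.53, 5.45 and 5.27 in treated against 5.51, 5.50 and 5.48 in untreated cells. MUC2, the gel-forming mucin of goblet cells, had overlapping groups and a log2 fold change of 0.16 (adjusted p = 0.249). The fall was that of MCAM, an adhesion glycoprotein rather than a mucin by sequence, by 0.43 log2 units (limma adjusted p = 0.0328), and it did not pass on leaving out any single array (adjusted p from 0.0527 to 0.114).

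CD44, the hyaluronan receptor whose sialylated variant the series is about, did not pass. Its probe set read 10.09, 9.90 and 9.99 in treated cells and 10.41, 10.21 and 10.21 in untreated cells, so that every treated array lay below every untreated one. The log2 fold change was -0.29 (limma adjusted p = 0.069), and its 95% confidence interval of -0.48 to -0.10 lay wholly below 0. CD44 passed after quantile normalization (limma adjusted p = 0.0142), with array weights (0.0224) and with a block for the replicate number (0.0299). It also passed without probe sets below the median signal (0.0459), and it did not pass in the other settings tried. The probe set reads CD44 as a whole, and splice variants were not analysed here. Of the 8 genes of CD44 and hyaluronan, 1 rose (12.5%, against 14.1% over all genes). It was the hyaluronan synthase HAS2, by 0.29 log2 units (limma adjusted p = 0.0399). The HAS2 call ended on leaving out any array other than treated replicate 3 (adjusted p up to 0.139).

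Sialyltransferases attach sialic acid to the ends of glycan chains, and all 20 human genes were measured. Of these, 1 rose, 4 fell and 15 did not pass. That is 25% past the test, against 14.1% over all genes. ST6GALNAC2 (NM_006456.1), which adds sialic acid in alpha-2,6 linkage to the first GalNAc of O-glycans, was the single rise. It read 7.84, 7.71 and 7.88 in treated against 6.43, 6.72 and 6.55 in untreated cells, about 1 unit apart at the nearest (2.36-fold, 2.04 to 2.74, limma adjusted p = 0.000461). Its relative ST6GALNAC1, known for adding the same sugar to the bare GalNAc, read 9.15, 9.12 and 9.05 against 9.59, 9.49 and 9.54, and fell 1.35-fold (1.25 to 1.46, limma adjusted p = 0.00233). The pair of enzymes moved in opposite directions, each on a probe set of its own.

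ST3GAL4, which caps galactose in alpha-2,3 linkage on type 2 chains, read 8.08, 8.15 and 8.27 against 8.63, 8.66 and 8.85 (1.46-fold lower, 1.28 to 1.67, limma adjusted p = 0.00681). ST6GAL1, the alpha-2,6 enzyme of N-glycans, read 10.62, 10.60 and 10.61 against 10.89, 10.87 and 10.95. Its treated arrays nearly coincided, and the fall was small at 1.23-fold (1.15 to 1.31, limma adjusted p = 0.00489). The ST6GAL1 call held on leaving out any single array, but not after ribosomal centring (adjusted p = 0.0658) or with the Caco-2 arrays in the fit (0.0955). ST3GAL2 fell by 0.22 log2 units (limma adjusted p = 0.0351) on a probe set that can cross-hybridise, while its unique probe set stood at 0.03 (adjusted p = 0.743), and the call ended on leaving out any array other than treated replicate 3 (adjusted p up to 0.13). The 15 that did not pass lay between -0.27 for ST6GALNAC5 and 0.12 for ST3GAL6, ST6GALNAC3 and ST6GALNAC6. ST3GAL1, which caps the core 1 O-glycan, was at -0.08, and the 6 polysialic and disialic enzymes ST8SIA1 to ST8SIA6 lay between -0.06 and 0.07.

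**Figure D3:**
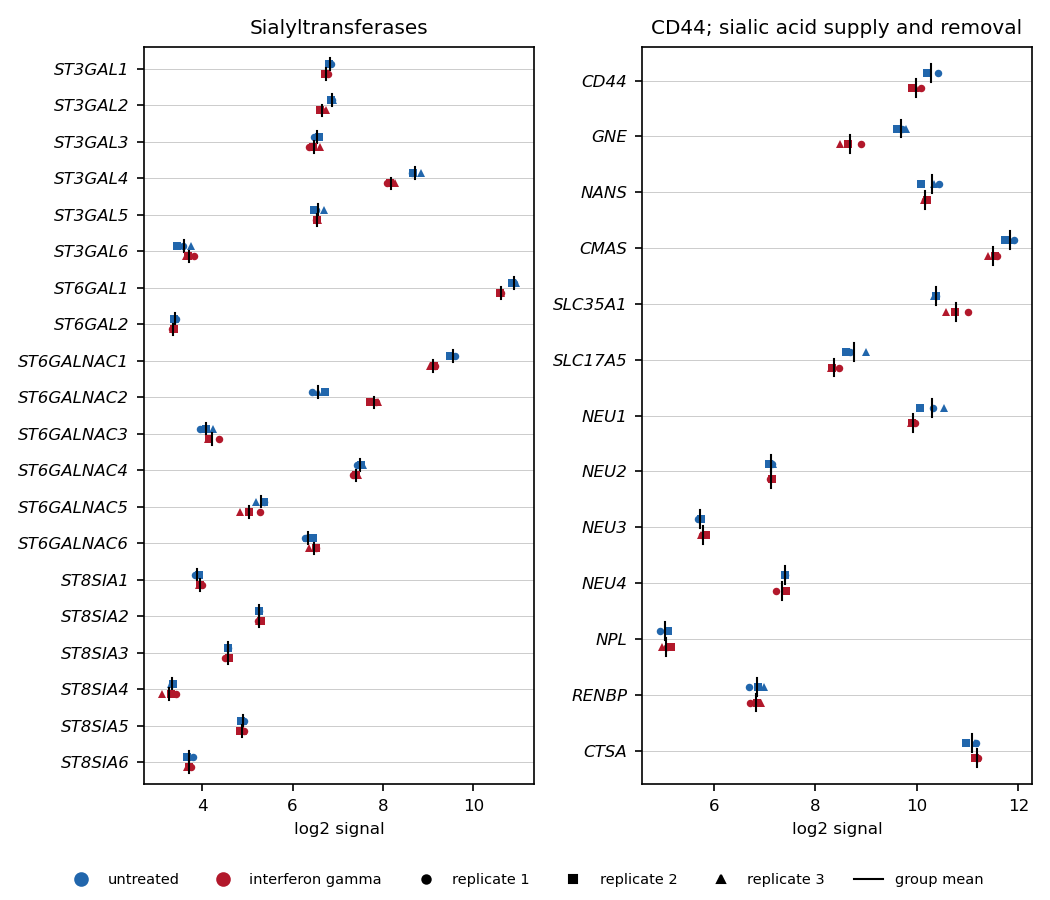
Log2 signals of the 20 sialyltransferase genes (left) and of CD44 with the 12 genes of sialic acid supply and removal (right), 1 point an array, red for treated and blue for untreated, with group means as black bars. ST6GALNAC2 lies to the right in treated cells, while ST3GAL4, ST6GAL1, ST6GALNAC1, GNE and CMAS lie to the left.

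Of 12 genes that make, activate, carry or remove sialic acid, none rose and 2 fell (16.7% against 14.1% over all genes), with a median of -0.04. GNE, whose product is the first committed precursor of sialic acid, read 8.89, 8.65 and 8.49 in treated cells against 9.70, 9.60 and 9.78 (2.02-fold lower, 1.68 to 2.43, limma adjusted p = 0.00234). The nearest arrays of the groups lay about 0.7 units apart. CMAS, which activates sialic acid as CMP-sialic acid in the nucleus, read 11.59, 11.53 and 11.41 against 11.92, 11.74 and 11.83 (1.25-fold lower, limma adjusted p = 0.0306). NANS, the synthase between them, had a log2 fold change of -0.12 (adjusted p = 0.521). SLC35A1, which carries CMP-sialic acid into the Golgi, was higher on every treated array, at 11.01, 10.75 and 10.57 against 10.38, 10.38 and 10.35, but did not pass (adjusted p = 0.0704). The lysosomal sialidase NEU1 and the lysosomal sialic acid exporter SLC17A5 were both at -0.39 (adjusted p = 0.0937 and 0.0886). The CMAS call ended without treated replicate 2 or 3 or untreated replicate 1 or 3 (adjusted p up to 0.11), and after ribosomal centring (0.102).

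O-glycans start with the transfer of GalNAc to serine or threonine. Of 18 genes for that step, none rose and 2 fell (11.1%, against 14.1% over all genes). GALNT12 read 8.56, 8.30 and 8.29 in treated cells against 9.11, 8.97 and 9.04 (1.58-fold lower, 1.37 to 1.82, limma adjusted p = 0.0049). GALNT11 read 7.28, 6.85 and 6.79 against the same 7.66 on all 3 untreated arrays (1.61-fold lower, limma adjusted p = 0.0193). Its call ended on leaving out any array other than treated replicate 1 (adjusted p up to 0.0957). Of 8 genes for cores and branches none passed, and C1GALT1, which makes core 1, spread over 7.40 to 8.36 in treated and 6.48 to 7.93 in untreated cells (log2 fold change 0.48, 95% confidence interval -0.60 to 1.55). Of 23 genes for chain extension 1 fell (4.35%), B4GAT1, an enzyme of the alpha-dystroglycan glycan, by 0.60 log2 units (limma adjusted p = 0.0165, and up to 0.0787 without treated replicate 1 or 2 or untreated replicate 1). None of 15 genes of glycosphingolipid synthesis passed.

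Fucosylation and blood group genes numbered 20, of which 2 rose and 1 fell (15%, against 14.1% over all genes). FUT4, which makes the Lewis x structure, read 10.57, 10.38 and 10.25 in treated cells against 9.78, 9.79 and 9.94 (1.47-fold, 1.26 to 1.73, limma adjusted p = 0.0138). GFUS, the synthase of GDP-fucose, rose from 9.66 ± 0.02 to 10.00 ± 0.01 (SD, n = 3 each), or 1.26-fold (limma adjusted p = 0.00181). FUT3, the Lewis enzyme, fell by 0.26 log2 units on a probe set that can cross-hybridise (limma adjusted p = 0.0234) and by 0.23 on a unique one (0.0453). The FUT4 call ended without treated replicate 2 or untreated replicate 1 or 2 (adjusted p up to 0.0668), and the FUT3 call without treated replicate 2 or 3 or untreated replicate 1 or 2 (up to 0.104).

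N-glycans are built on a lipid, moved to the protein and trimmed. Of 21 genes for the precursor and its transfer, 3 fell and none rose (14.3%, near the 14.1% over all genes), with a median of -0.12. ALG14, which recruits the enzyme for the second GlcNAc of the precursor, fell by 0.54 log2 units (limma adjusted p = 0.0338). DPM3, a subunit of the dolichol-mannose synthase, fell by 0.44 (0.0138), and the oligosaccharyltransferase subunit DDOST by 0.33 (0.0183). Among 13 genes for trimming and branching, 3 fell and 1 rose (30.8%). MGAT3, which adds the bisecting GlcNAc, fell from 7.38 ± 0.05 to 6.96 ± 0.07 (SD, n = 3 each, 1.33-fold, limma adjusted p = 0.0049). The mannosidases MAN1B1 and MAN2A1 fell by 0.28 and 0.24, and the Golgi mannosidase MAN1A1 rose by 0.30. The MAN1A1 probe set was dim, with an untreated mean of 5.33, and was not shown to be above background. The branching enzymes MGAT1, MGAT2 and MGAT5 lay between -0.06 and 0.02. Leaving out treated replicate 2 ended each of these calls but that of MGAT3 (adjusted p up to 0.131 for ALG14, 0.0724 for DPM3, 0.0638 for DDOST, 0.0652 for MAN1B1, 0.112 for MAN2A1 and 0.0794 for MAN1A1 over the single arrays left out). DPM3 also failed without treated replicate 3, and MAN1A1 without untreated replicate 1 or 2. DDOST failed without any treated array or untreated replicate 1, MAN2A1 without any treated array or untreated replicate 2, and ALG14 on leaving out any array other than treated replicate 1.

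Galectins bind beta-galactosides on the cell surface. Of 13 galectin genes, 4 rose and 1 fell (38.5%, against 14.1% over all genes), with a median of 0. LGALS4, a galectin of the intestinal epithelium, read 12.45, 12.46 and 12.50 in treated cells against 12.99, 13.04 and 12.98. The arrays of each group lay within 0.06 units, and the fall was 1.45-fold (1.36 to 1.54, limma adjusted p = 0.000455). LGALS13, LGALS14 and CLC, galectin genes known from placenta and eosinophils, had treated means of 5.06, 4.87 and 5.61 and rose by 0.28, 0.26 and 0.28 log2 units (limma adjusted p = 0.00641, 0.0147 and 0.0306). Their probe sets were dim, with untreated means of 4.78, 4.61 and 5.33, and were not shown to be above background. The share of galectins past the test rests in large part on them. The LGALS14 call ended without treated replicate 2 or 3 or untreated replicate 1 or 3 (adjusted p up to 0.0727), and the CLC call without treated replicate 2 or 3 or untreated replicate 1 or 2 (up to 0.103). LGALS1 and LGALS3 were at -0.16 and -0.10 (adjusted p = 0.442 and 0.24). Among 65 C-type lectins, siglecs and selectins 1 passed (1.54%). It was PLA2R1, a phospholipase receptor, which fell by 0.55 on a probe set whose partner stood at -0.01 (limma adjusted p = 0.015 and 0.963), and the call ended without treated replicate 2 or 3 or untreated replicate 1 (up to 0.0787).

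Heparan sulfate chains bind growth factors and chemokines at the cell surface. Of 30 genes for their synthesis and cleavage, 1 rose and 3 fell (13.3%, near the 14.1% over all genes). HPSE, the heparanase that cuts these chains, read 7.87, 7.84 and 7.69 in treated cells against 7.01, 7.12 and 7.15 (1.63-fold, 1.46 to 1.83, limma adjusted p = 0.00154). XYLT1, the xylosyltransferase that starts the chains, read 7.31, 7.18 and 7.09 against 7.69, 7.99 and 7.87 (1.58-fold lower, 1.35 to 1.85, limma adjusted p = 0.00681). A unique probe set of XYLT1 fell by 0.63, close to the 0.66 of this one, which can cross-hybridise. XYLT2, the second such enzyme, and the sulfotransferase NDST1 fell by 0.19 and 0.21 (limma adjusted p = 0.0316 and 0.0361).

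Of 28 proteoglycan core proteins 3 fell and none rose (10.7%, against 14.1% over all genes). SDC1, syndecan 1 of epithelia, fell from 10.18 ± 0.11 to 9.66 ± 0.10 (SD, n = 3 each, 1.43-fold, limma adjusted p = 0.00778). HSPG2, perlecan, fell by 0.40 (0.00592) and GPC1, glypican 1, by 0.18 (0.0386). The HSPG2 probe set can cross-hybridise, and a unique one fell by 0.28 (limma adjusted p = 0.0049). Of 15 genes for chondroitin and dermatan sulfate 2 rose (13.3%), CHSY1 by 0.48 and CHST11 by 0.31 log2 units (limma adjusted p = 0.0408 and 0.0186). The CHST11 probe set was dim, with an untreated mean of 4.44, and was not shown to be above background. Of 18 other genes of sulfation 2 fell (11.1%). PAPSS2, which makes the sulfate donor PAPS, read 8.93, 8.80 and 8.80 in treated cells against 9.90, 9.90 and 9.86 (2.06-fold lower, 1.90 to 2.23, limma adjusted p = 8.48e-05). PAPSS1, the second enzyme for that step, was at -0.23 (adjusted p = 0.0626). GAL3ST4, a galactose 3-O-sulfotransferase, fell 1.62-fold (1.43 to 1.84, limma adjusted p = 0.00234) and on a second probe set by 0.74.

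Single arrays bore on several calls among these sulfated chains. CHSY1 did not pass without any 1 of the 6 arrays (adjusted p from 0.0586 to 0.125). CHST11 failed without treated replicate 1 or 2 or untreated replicate 2 or 3 (up to 0.0676). XYLT2 failed on leaving out any array other than untreated replicate 2 (up to 0.0982), NDST1 on leaving out any other than treated replicate 3 (up to 0.139) and GPC1 on leaving out any other than untreated replicate 1 (up to 0.105). The calls of HPSE, XYLT1, SDC1, HSPG2, PAPSS2 and GAL3ST4 held without each of the 6 arrays.

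Nucleotide sugars are the donors of glycosylation. Of 34 genes for their supply, 2 rose and 4 fell (17.6%, against 14.1% over all genes). HK1, the hexokinase that phosphorylates glucose, read 9.88, 9.96 and 9.99 in treated cells against 8.85, 8.80 and 8.84. The arrays of each group lay close together (2.17-fold, 2.02 to 2.33, limma adjusted p = 3.9e-05). GNPDA1, which turns glucosamine 6-phosphate back to fructose 6-phosphate, rose 1.38-fold (limma adjusted p = 0.0101, and 0.0538 without treated replicate 2). SLC35D3, a transporter-like gene whose substrate is not settled, read 6.35, 6.29 and 6.09 against 7.23, 7.46 and 7.39 (2.17-fold lower, 1.86 to 2.52, limma adjusted p = 0.000749). PGM1, phosphoglucomutase, read 9.52, 9.54 and 9.57 against 10.17, 10.19 and 10.16 (1.55-fold lower, 1.47 to 1.64, limma adjusted p = 0.000149). PMM1, a phosphomannomutase, fell 1.36-fold (limma adjusted p = 0.00497). SLC35E1, named after its value was seen, fell 1.26-fold (0.0141, and up to 0.0724 without treated replicate 2 or 3).

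Members of the list of glycosidases moved in 1 direction where they passed. HPSE and MAN1A1, which also cut glycans and were counted in other lists above, rose, MAN1A1 on a dim probe set. Of 26 lysosomal and other glycosidases and their partners, 7 fell and none rose, or 26.9% against 14.1% over all genes, with a median of -0.16. FUCA1, the lysosomal alpha-fucosidase, read 9.02, 8.98 and 9.07 in treated cells against 9.79, 9.53 and 9.78 (1.60-fold lower, 1.40 to 1.83, limma adjusted p = 0.00348). GALC, the galactosylceramidase, read 8.36, 8.13 and 8.20 against 8.79, 9.27 and 8.84 (1.67-fold lower, 1.31 to 2.12, limma adjusted p = 0.0204). Untreated replicate 2 stood out as the highest GALC array. MANBA, the beta-mannosidase, fell 1.39-fold (limma adjusted p = 0.00592), the alpha-mannosidase MAN2B1 1.19-fold (0.011) and the beta-galactosidase GLB1 1.18-fold (0.0269). GUSB and IDS, named after their values were seen, fell 1.17-fold and 1.16-fold (limma adjusted p = 0.0444 and 0.0454). The GALC call ended without treated replicate 2 or 3 (adjusted p up to 0.101), MAN2B1 without treated replicate 2 (0.0585) and GLB1 on leaving out any array other than treated replicate 1 (up to 0.0994). That of GUSB ended on leaving out any array other than untreated replicate 2, and that of IDS on leaving out any other than untreated replicate 1 (up to 0.166 for both).

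UGT1A1, which conjugates bilirubin with glucuronic acid, fell alone of 6 UDP-glucuronosyltransferases (16.7%, against 14.1% over all genes). It read 9.64, 9.59 and 9.40 in treated cells against 10.64, 10.73 and 10.58 (2.15-fold lower, 1.89 to 2.45, limma adjusted p = 0.000455). Its probe set is shared, and the UGT1A genes have exons in common. The other 5, all UGT2 genes, lay between -0.07 and 0.06. Of 7 genes for GPI anchors 1 fell (14.3%), PIGP by 0.31 (limma adjusted p = 0.0306), and it did not pass without treated replicate 2 or any untreated array (up to 0.114).

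Notch receptors carry O-linked sugars that tune their ligands' grip. Of 21 genes for Notch and for O-fucose, O-glucose, O-GlcNAc and O-mannose, 3 fell and none rose (14.3%, near the 14.1% over all genes), with a median of -0.19. NOTCH1 read 8.58 on all 3 treated arrays against 9.0, 8.99 and 9.0 (1.34-fold lower, 1.27 to 1.41, limma adjusted p = 0.000592). LFNG, the fringe enzyme that extends O-fucose on Notch, read 8.65 on all 3 treated arrays against 9.14, 9.69 and 9.53 (1.75-fold lower, 1.38 to 2.21, limma adjusted p = 0.0141). The untreated LFNG arrays spread widely (SD 0.28, n = 3), and its other probe set, at -0.44, did not pass (adjusted p = 0.112). POMT2, of protein O-mannosylation, fell by 0.27 (limma adjusted p = 0.037). NOTCH3 lay close to the threshold at -0.40 (adjusted p = 0.0516). LFNG did not pass without treated replicate 2 or 3 or untreated replicate 3 (up to 0.073), nor POMT2 on leaving out any array other than treated replicate 1 (up to 0.13).

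Of 24 growth factor receptor genes 5 fell and none rose, or 20.8% against 14.1% over all genes, with a median of -0.02. FGFR3 (NM_022965.1), a receptor of fibroblast growth factors, gave the largest fall of all genes. It read 7.81, 7.65 and 7.62 in treated cells against 8.80, 9.0 and 9.0, about 1 unit apart at the nearest (2.36-fold lower, 2.06 to 2.70, limma adjusted p = 0.000343). FGFR4, its relative, fell 1.36-fold (limma adjusted p = 0.00294). IGF1R, the receptor of insulin-like growth factors, read 7.94, 7.49 and 7.55 against 8.54, 8.54 and 8.52 (1.84-fold lower, 1.49 to 2.26, limma adjusted p = 0.00641). ERBB3, a partner of the epidermal growth factor receptor family, read 10.95, 10.82 and 10.91 against 11.74, 11.64 and 11.77 (1.77-fold lower, limma adjusted p = 0.000412) on a shared probe set. A unique ERBB3 probe set stood at -0.13 (adjusted p = 0.174). ACVR1B, an activin receptor, fell by 0.52 on its brightest probe set (limma adjusted p = 0.000892), while its 3 others lay within 0.01 of 0, and their mean with it did not pass (adjusted p = 0.0775).

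Among 55 growth factor genes 1 rose and 7 fell (14.5%, near the 14.1% over all genes). IHH, the hedgehog ligand of the colonic epithelium, read 8.16, 8.12 and 8.10 in treated cells against 9.10, 9.36 and 9.08 (2.08-fold lower, 1.81 to 2.39, limma adjusted p = 0.00071). IGFBP1, a carrier of insulin-like growth factors, read 6.03, 5.99 and 5.99 against 6.64, 7.50 and 6.95 (2.04-fold lower, 1.42 to 2.91, limma adjusted p = 0.027). Its untreated arrays were far apart (SD 0.44, n = 3), and the call ended without any treated array or untreated replicate 3 (up to 0.114). FGF18 fell 1.71-fold (1.45 to 2.02, limma adjusted p = 0.0049) and BMP7, a bone morphogenetic protein, 1.60-fold (1.46 to 1.77, 0.000873). INHBB, an activin subunit, fell by 0.38 (limma adjusted p = 0.0153, and up to 0.0529 without untreated replicate 1 or 3). BMP4 and TGFB3, named after their values were seen, fell by 0.42 and 0.20 (limma adjusted p = 0.0298 and 0.025). BMP4 did not pass on leaving out any array other than treated replicate 1 (up to 0.124), nor TGFB3 on leaving out any other than untreated replicate 1 (up to 0.0819). The rise was that of TGFB1, a cytokine that restrains T cells, which read 8.74, 8.82 and 8.89 against 8.20, 8.47 and 8.27 (1.42-fold, 1.23 to 1.63, limma adjusted p = 0.0133, and up to 0.0676 without treated replicate 2 or 3).

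Of 29 WNT ligand and frizzled receptor genes 1 rose and 5 fell, or 20.7% against 14.1% over all genes. FZD2, a receptor, read 6.79, 6.62 and 6.40 in treated cells against 7.58, 7.59 and 7.52 (1.95-fold lower, 1.64 to 2.31, limma adjusted p = 0.00231). WNT11, a ligand, read 6.89, 6.63 and 7.03 against 7.51 on all 3 untreated arrays (1.58-fold lower, limma adjusted p = 0.0101). WNT10A fell by 0.43 (limma adjusted p = 0.0139) and FZD7 by 0.38 (0.0254), and WNT3, named after its value was seen, by 0.16 (0.0376, and 0.0623 to 0.126 without each single array). FZD4 rose by 0.40 (limma adjusted p = 0.0129). Without treated replicate 2 or 3 the calls of WNT10A, FZD7 and FZD4 ended (up to 0.0712, 0.111 and 0.0538 over the arrays left out), FZD7 also without untreated replicate 2 or 3 and FZD4 without untreated replicate 1.

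Ribosomal protein genes are often used as steady references. Of 42 measured, 5 fell and none rose (11.9%, against 14.1% over all genes), and 26 of the 42 had every treated array below every untreated one. Over the whole array, 17.9% of probe sets had treated arrays below, and 29.4% of genes had separate groups in either direction. The log2 fold changes of the 42 genes ran from -0.63 to 0, with a median of -0.09. RPL34 fell by 0.63 (limma adjusted p = 0.0101, and 0.0556 without treated replicate 2), RPL23 and RPL28 by 0.31 each, RPL13A by 0.29 and RPL7A by 0.19. The RPL23, RPL13A and RPL7A probe sets can cross-hybridise. On a second, shared probe set RPL23 fell by 0.63 and RPL13A by 0.30 (limma adjusted p = 0.0192 and 0.00975). RPL13A did not pass without treated replicate 2 or 3 or untreated replicate 2 (up to 0.0676), nor RPL7A on leaving out any array other than untreated replicate 2 (up to 0.147). Centring the arrays on these genes takes out their own shift by construction, and outside them the falls of ST6GAL1, ST3GAL2, CMAS, FUT3, GPC1, XYLT2, NDST1, GLB1, MAN2A1, MAN2B1, MAN1B1, DDOST, ALG14, PIGP, POMT2, FZD7, WNT10A and MCAM did not pass (limma adjusted p up to 0.416). The rise of HAS2 did not pass either (0.0585). Of the genes named after their values were seen, BMP4, TGFB3, GUSB, IDS, SLC35E1 and WNT3 did not pass (limma adjusted p up to 0.504). The part of this shift in the small falls was not tested beyond that centring.

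**Figure D4:**
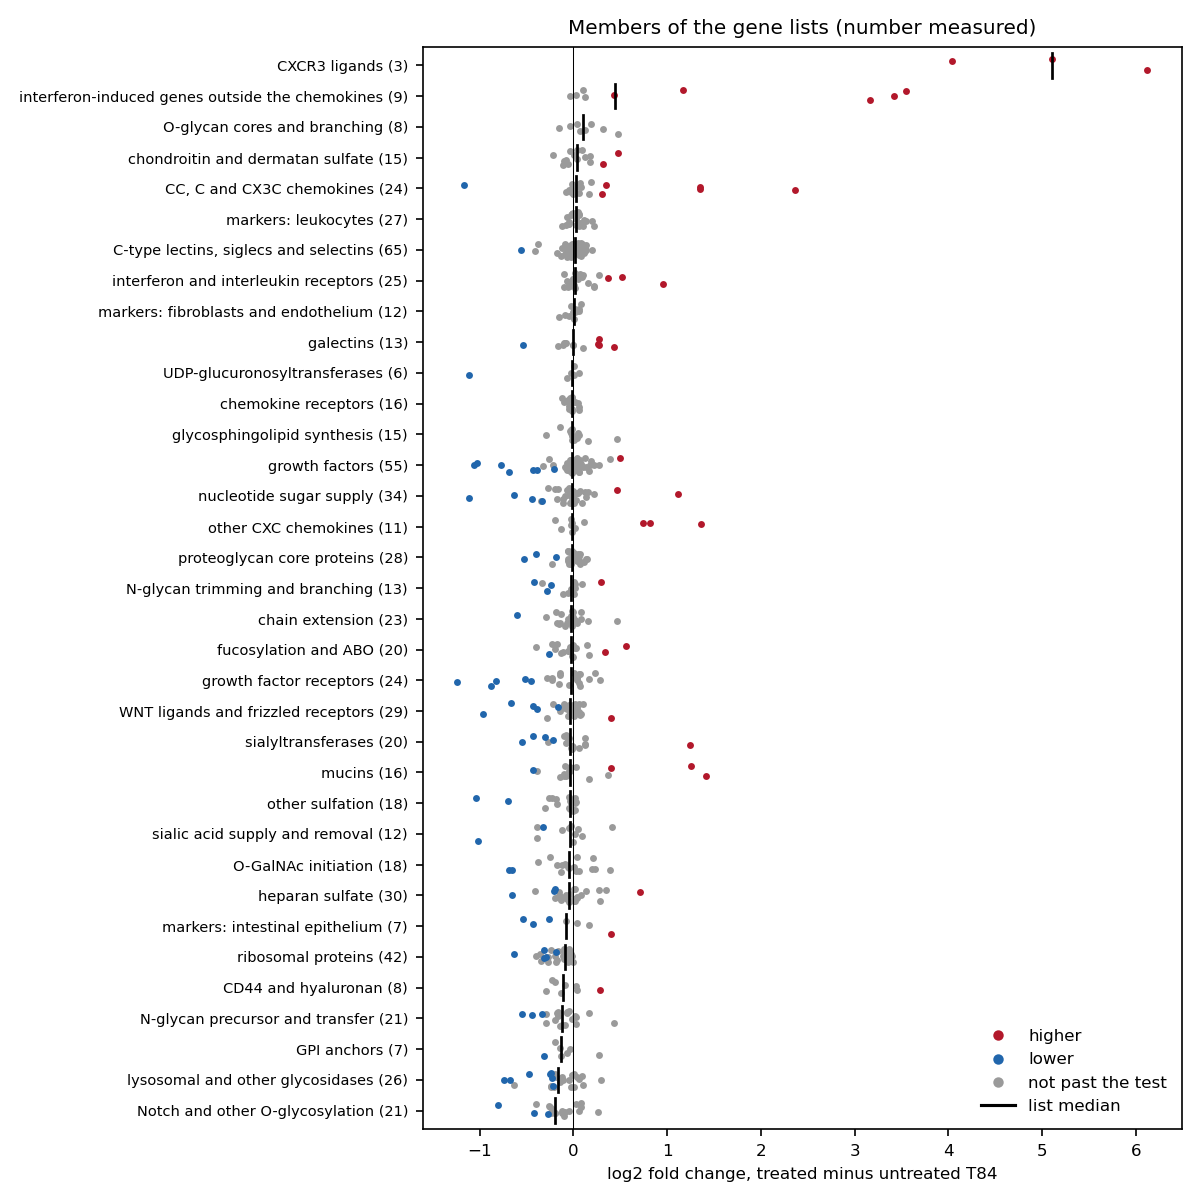
Log2 fold change, treated minus untreated, of each measured gene of the lists, with the number measured in brackets and the list median as a black bar. Red points rose, blue points fell and grey points did not pass. The CXCR3 ligands and the other interferon-induced genes stand to the right, the medians of most lists lie near 0, and the glycosidases and the Notch list have the lowest medians.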

How the data were processed

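Trizol-extracted RNA, 0.5 ug a sample, was labelled with biotin and hybridised to single-colour Affymetrix arrays. The authors deposited RMA values on the log2 scale, per the submitters' processing notes. In the sources used here, no version of RMA, filter or genome build is given. These values were not changed further.

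Of 1259 probe sets, 1043 had 1 symbol by matching identifiers to a RefSeq table, and the other 216 were tested unnamed. Suffixes marked 266 as shared with other genes or transcripts, 113 as shared within a gene and 87 as open to cross-hybridisation. Each gene was read by its brightest probe set over the 6 T84 arrays.

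Treated and untreated T84 were compared with limma 3.58.1 in R 4.3.3 (lmFit and eBayes, 4 residual and 1.95 prior degrees of freedom, two-sided), without the Caco-2 arrays. Fold intervals are at 95%. Named were the 15 largest changes in each direction among called genes with separate groups, CD44, all sialyltransferases, genes of sialic acid supply, and at most 5 members of every further list, taken by smallest adjusted p. Genes beyond this rule (among them CXCL8, CCL4, CXCR3, IFITM1, LGALS1, LGALS3, MGAT1, MGAT2 and MGAT5) were named after their values were seen. The lists and members were chosen with earlier results of these data known. The fit was checked on simulated arrays with independent noise at each probe set. They lack the deviations that the real arrays share across probe sets, so the check bears on the code and not on the calls. Alternatives changed the scaling, the filters, the threshold, the arrays fitted (single arrays left out or Caco-2 added), array weights, the moderation and a block for the replicate number. Leaving out replicate 3 of both groups was chosen after seeing the data. Python 3.11.15, pandas 2.3.3 and matplotlib 3.10.9 were used.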

Additional observations from a re-analysis of the deposited data

How the results depend on the processing

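Against 65 probe sets higher and 101 lower, an adjusted p below 0.01 left 39 and 43, and a 2-fold minimum 19 and 9. Centring on ribosomal protein genes left 58 lower, of which 57 were among the 101. Leaving out 1 array gave 40 to 57 higher and 49 to 98 lower, with 40 and 49 without treated replicate 2 and 57 lower without treated replicate 3. Leaving out replicate 3 of both groups gave 37 and 22, at 2 arrays a group. All 9 arrays in the fit gave 55 and 73, array weights 85 and 142, median centring 63 and 123, quantile normalization 70 and 111, a mean-variance trend 64 and 93, robust moderation 65 and 106, a filter at the 25th percentile 61 and 104, at the median 55 and 100, and unshared probe sets alone 47 and 70. A replicate block gave 60 and 86. Deviations from the group means correlated between same-numbered arrays at 0.39, -0.024 and 0.56 for replicates 1, 2 and 3. Deviations within a group depend on each other, so these values are not independent, and pairs of unlike number across groups were not compared. The labels name no pairs or batches, so the main fit has no block. Whether same-numbered arrays share a batch was not tested. The block ended the calls of CXCL1, CXCL3, CHSY1, MAN1A1, GPC1, RPL7A, XYLT2, NDST1, ST3GAL2, GLB1, MAN2A1, POMT2, FZD7, MCAM and ALG14 (limma adjusted p from 0.0526 to 0.1), and CD44 passed with it (0.0299). Of 96 named calls, 53 held without each single array and 42 ended without treated replicate 2. That array lay nearest its group mean, at a mean absolute deviation of 0.0425 against 0.0789 and 0.0748 for treated replicates 1 and 3. Deviations of replicates 1 and 3 correlated at -0.88, so without replicate 2 the treated group keeps its 2 least alike arrays. How far this bore on the calls that ended was not tested. The block ended 15 of the 96 calls, all 9 arrays 22 and ribosomal centring 23. None reversed in any setting, but this was largely fixed in advance. The groups of every called gene did not overlap, so leaving out arrays, weights, the block, moderation, filters and thresholds could not reverse a sign. With all 9 arrays, GFUS, CHST11, MAN1A1, HAS2, LGALS14, MGAT3, RPL28 and ST6GAL1 were among the calls that ended. The number of arrays limits the smallest change that can be called, and the smallest called was 0.16 log2 units.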

Other observations

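Outside the gene lists, 14 genes rose and 14 fell, and those named here were chosen after their values were seen. FST, follistatin, which binds activins, rose 1.94-fold (95% confidence interval 1.66 to 2.27, limma adjusted p = 0.00162), from 6.60 ± 0.07 to 7.56 ± 0.17 (SD, n = 3 each). PSME1, a subunit of the proteasome activator PA28 used in making peptides for MHC class I, rose 1.53-fold (1.36 to 1.72, limma adjusted p = 0.00291). IL12A, the p35 chain of interleukin 12, rose 1.48-fold from a dim 5.53 ± 0.08 (limma adjusted p = 0.00395). The lysyl-tRNA synthetase KARS1 rose by 0.68 log2 units and the guanylate kinase GUK1 by 0.80, both on shared probe sets. IFITM2, an antiviral membrane protein, rose by 0.43 log2 units (limma adjusted p = 0.0293) on a probe set that can cross-hybridise, a call that ended without any treated array or untreated replicate 1 (up to 0.109). Among the falls, the sulfotransferases SULT1A2 and SULT1A3 fell by 0.69 and 0.54 and the acid ceramidase ASAH1 by 0.54, each on a probe set that is shared or can cross-hybridise. The SULT1A3 call ended without treated replicate 2 or 3 or untreated replicate 1 or 3 (limma adjusted p up to 0.064).

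IL12RB1, a receptor chain for interleukins 12 and 23, differed between its probe sets. A second one rose by 0.91 log2 units (limma adjusted p = 0.00299), while the brightest, used above, stood at 0.08 (adjusted p = 0.402). Of the probe sets without a symbol, 7 rose and 7 fell, and 1 of them rose 8.46-fold (6.95 to 10.3). At 43 probe sets all 3 arrays of a group had the same value to 4 decimals, in treated cells at 19 and in untreated cells at 25. Of these 43, 5 passed (11.6%), among them LFNG, WNT11, NOTCH1 and GALNT11, whose spread in that group is then listed as 0.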
